A study of Homo sapiens with 4 samples.

Results

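The levels of 10 target genes of the integrated stress response were followed in K562-U2AF1 S34F cells given the U2AF1-UHM inhibitor SF1-8. The genes were DDIT3, TRIB3, CHAC1, ASNS, PSAT1, PHGDH, SESN2, PPP1R15A, DDIT4 and SLC7A11. They were chosen by symbol as known targets of this pathway, and each was found in 1 entry of the deposited table, so that 10 of the 62778 entries that name a gene were members. All 10 passed the filter on low counts and were tested among 26167 entries.

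The integrated stress response is a pathway in which kinases that sense different stresses phosphorylate the translation factor eIF2α. Protein synthesis then slows in general, while the mRNA of the transcription factor ATF4 is translated better. ATF4, together with partners of the C/EBP family, switches on genes for amino acid synthesis and uptake, for glutathione turnover and for feedback on the pathway itself, and under lasting stress also the pro-apoptotic factor CHOP, which DDIT3 encodes. K562 is an established human erythroleukemia line, in which the heme-regulated kinase of this pathway links heme supply to protein synthesis.

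The study compared 2 libraries of cells given the solvent DMSO with 2 libraries of cells given 30 μM SF1-8, both for 48 h. All 4 libraries came from K562 cells that overexpress the S34F mutant of U2AF1, a splicing factor, so that the controls carried the mutant too. The labels do not say whether the 2 libraries of a group came from separate cultures, or how many clones the line holds, and p-values therefore measure only the spread between these libraries. RNA was depleted of ribosomal RNA and sequenced, and the deposited table gives an FPKM value (a level per length of transcript and per depth of library) and an estimated count for each entry and library.

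The total count was 45522905 in DMSO 1 and between 64305922 and 67554610 in the other 3 libraries. Ribosomal RNA loci still held 10.9% to 13.99% of the counts. The erythroid factor GATA1 had an FPKM of 75.9 to 79.1 in all 4 libraries, and the 10 erythroleukemia markers, which lie in 8 entries, had a median log2 fold change of -0.04, with 0 of the 8 entries at an unadjusted p under 0.05 in the edgeR quasi-likelihood fit. Markers of stromal cells differed more. Their summed FPKM was 9.94 and 4.72 in DMSO 1 and DMSO 2, against 2.46 and 0.594 in SF1-8 1 and SF1-8 2. LUM, a defining stromal marker, had a count of 0 in both SF1-8 libraries.

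Short stretches of promoter are shown for the members in which either of 2 response elements was found. The pathway is known to act through the first of these, the composite element. RefSeq promoter windows of GRCh38.p14 (250 bases before to 50 after a start site) were at hand for 9 of the 10 members, in 13 windows. The composite element bound by ATF4 with C/EBP factors was searched as TGATGNAA on both strands, and the cyclic AMP response element, bound by factors of the CREB and ATF families, as TGACGTCA. The first was found in 2 of the 13 windows, of ASNS and CHAC1, and the second in 1, of PPP1R15A. Among all 35116 windows, 3.62% held the first motif and 1.85% the second. The stretches are written 5′ to 3′ on the strand of the gene, with the motif in capitals.
ASNS, chr7:97872453-97872492, minus strand: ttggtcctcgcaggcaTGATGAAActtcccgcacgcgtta
CHAC1, chr15:40953246-40953285, plus strand, with the motif on the opposite strand: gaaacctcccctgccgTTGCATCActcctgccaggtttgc
PPP1R15A, chr19:48872347-48872386, plus strand: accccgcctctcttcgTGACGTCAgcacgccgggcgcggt
The motif began 68 bases before the start site in ASNS, 209 in CHAC1 and 58 in PPP1R15A. These matches are descriptions of the letters in the windows.

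No member was called different between SF1-8 and DMSO. In the edgeR quasi-likelihood fit, with p-values adjusted over all entries by the Benjamini-Hochberg method, 0 of the 10 passed 0.05, and the adjusted p was 0.970 for each. Across all entries tested, 0.0420% were called, which is 11 of 26167. At an unadjusted p under 0.05 the count was 1 of 10, DDIT3, beside 4.33% of all entries. DDIT3 was lower with SF1-8, as were 2.54% of all entries at this threshold, and 0 members were higher, against 1.78% of all entries. With DESeq2, which called 0.477% of entries, the count of members at an adjusted p under 0.05 was also 0 and at an unadjusted p under 0.05 it was 1. The median log2 fold change of the members was 0.08, beside -0.01 over all entries tested, with 7 members above and 3 below 0.

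The intervals show how much change the libraries left room for. For 9 of the 10 members the 95% interval of the fold change lay within 2-fold in both directions, against 45.9% of all entries tested, and CHAC1 was the exception. The upper end alone was under 2-fold for the same 9 members, against 61.2% of all entries. These shares compare genes of unlike level. By mean FPKM, CHAC1 lay above 17.3% of all tested entries, and the 9 other members above 41.1% (PHGDH) to 95.1% (PSAT1). In TMM-scaled counts the groups did not overlap for 5 of 10 members, against 35.5% of all entries. The SF1-8 pair was the higher for 4 members (CHAC1, PSAT1, PPP1R15A and DDIT4) and the lower for 1 (DDIT3), while over all entries it was the higher for 17.3% and the lower for 18.1%. This split depended on scaling. It was 2 above and 3 below with library totals alone, and 3 above and 2 below in FPKM. The summed FPKM of the members was 96.9 in DMSO 1 and 91.3 in DMSO 2, and 91.2 in SF1-8 1 and 93.4 in SF1-8 2, so that the sums overlapped between the groups.

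**Figure D1:**
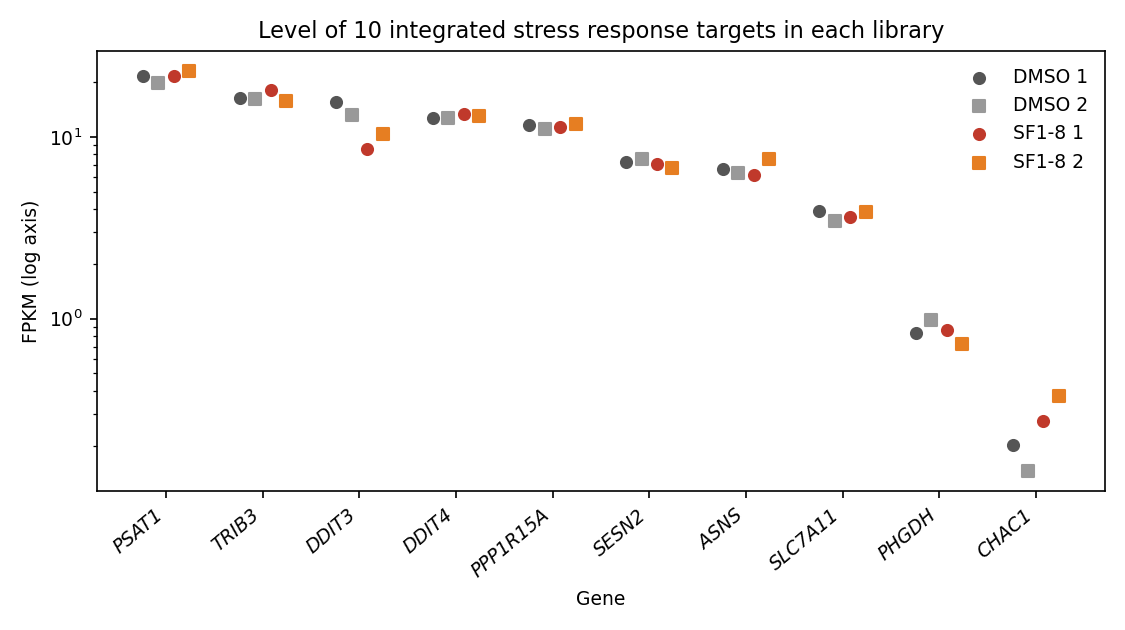
FPKM of each of the 10 genes (log axis) in the 4 libraries, with genes ordered by their mean in DMSO. Each point is 1 library. DDIT3 lies between 8.54 and 10.4 with SF1-8 and between 13.2 and 15.6 with DMSO, and CHAC1, the lowest gene, lies between 0.273 and 0.374 with SF1-8 and between 0.145 and 0.202 with DMSO.

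DDIT3 encodes CHOP, the transcription factor of the late, pro-apoptotic arm of the response. Its entry spans chromosome 12 of GRCh38 from 57516588 to 57521737 on the minus strand. DDIT3 had an FPKM of 15.6 and 13.2 in DMSO 1 and DMSO 2, and of 8.54 and 10.4 in SF1-8 1 and SF1-8 2. Both SF1-8 libraries were thus lower than both DMSO libraries. The mean of the DMSO libraries was 14.4 ± 1.69 (SD, n = 2). That of the SF1-8 libraries was 9.45 ± 1.30 (SD, n = 2), a difference of -34.5%. The log2 fold change was -0.58 (standard error 0.146), with a 95% interval from -0.95 to -0.21. Of all entries, DDIT3 ranked 256 by p. Its adjusted p in the edgeR quasi-likelihood fit was 0.970, so the difference failed the correction for the number of entries tested. By DESeq2 with the same adjustment the adjusted p was 0.345. Because fewer cells that express a gene and less RNA per cell give the same value in bulk RNA, these cannot be told apart here.

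The DDIT3 value was looked at for what else lies at the locus. The entry also names AC022506, a coding gene model on the same strand that overlaps DDIT3 over 2769 bases. On the opposite strand, the methionyl-tRNA synthetase gene MARS1 overlaps DDIT3 over 982 bases in GENCODE version 29, where it is listed as MARS, and the methyl-CpG-binding domain gene MBD6 over 1028 bases. Whether the counting used strand is not given in the sources used here. MARS1 had an FPKM between 21.4 and 21.9 in all 4 libraries and a log2 fold change of 0.02 (95% interval -0.15 to 0.20). The FPKM of MBD6 was 3.68 and 3.94 in the DMSO libraries, and its values of 4.59 and 3.16 in SF1-8 1 and SF1-8 2 lay on either side of these. Both neighbours were looked up only after the DDIT3 values had been seen. Of 7 stromal markers tested, 6 lay lower in both SF1-8 libraries than in both DMSO libraries, against 18.1% of all entries tested. THY1 overlapped. Within the DMSO pair, DDIT3 and the summed stromal markers were both higher in DMSO 1. Within the SF1-8 pair, the sum was higher in SF1-8 1 and DDIT3 in SF1-8 2. The part of the stromal markers in the DDIT3 result was not tested.

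TRIB3 encodes a pseudokinase that is induced by ATF4 and CHOP and damps AKT signalling. The FPKM of TRIB3 (chromosome 20 of GRCh38 from 362835 to 397559) was 16.4 and 16.1 under DMSO, against 18.1 and 15.8 under SF1-8. The SF1-8 libraries lay on either side of the DMSO libraries. TRIB3 had a log2 fold change of 0.09 with a 95% interval from -0.17 to 0.35, which turned to -0.01 without SF1-8 1. TRIB3 therefore did not show the lower level that DDIT3 showed in both SF1-8 libraries, although the difference between the fold changes of these genes was not tested.

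**Figure D2:**
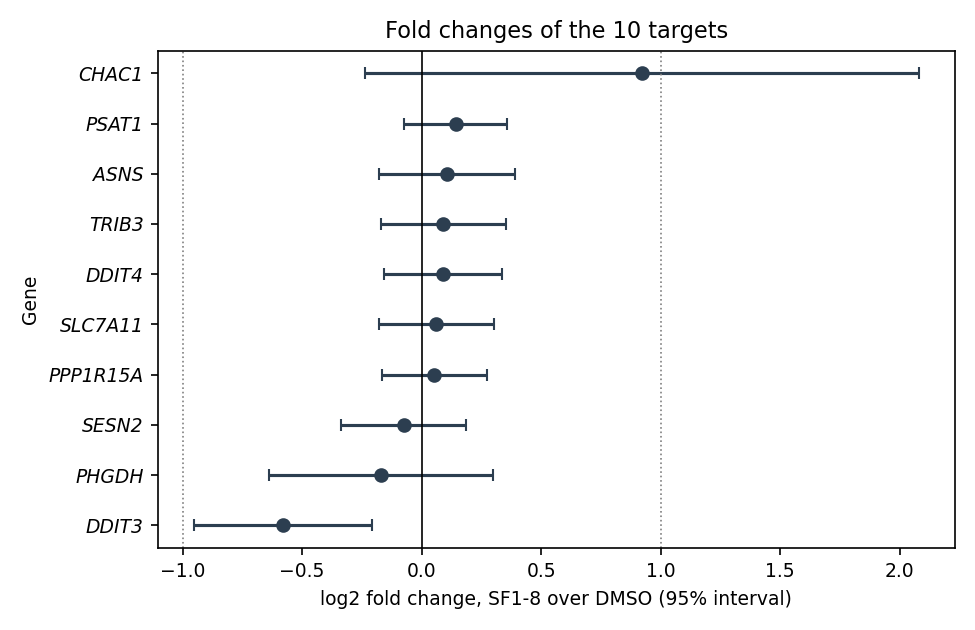
Log2 fold change of each gene, SF1-8 over DMSO, with its 95% interval from edgeR's quasi-likelihood fit over all 26167 entries. Dotted lines mark 2-fold in each direction. The DDIT3 interval runs from -0.95 to -0.21, the CHAC1 interval from -0.24 to 2.08, and the other 8 intervals cross 0 and stay inside the dotted lines.

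Glutathione turnover is represented by CHAC1 and SLC7A11. CHAC1 encodes an enzyme that degrades glutathione and is among the most inducible targets of the pathway. Its entry (chromosome 15 of GRCh38 from 40952962 to 40956512) gave FPKM values of 0.202 and 0.145 under DMSO, against 0.273 and 0.374 under SF1-8. Both SF1-8 libraries were above both DMSO libraries, at a very low level. The estimated counts behind them were 24 and 25 under DMSO, against 48 and 62 under SF1-8, in a table where 4 is the commonest count above 0, so the values rest on few fragments. For CHAC1 the log2 fold change was 0.92 (standard error 0.454), with a 95% interval from -0.24 to 2.08. This interval reaches from below no change to 4.23-fold higher, and the libraries do not settle whether CHAC1 changed.

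SLC7A11 encodes the cystine and glutamate exchanger that supplies cysteine for glutathione. The FPKM of SLC7A11 (chromosome 4 of GRCh38 from 138164097 to 138242349) was 3.92 and 3.43 under DMSO, against 3.64 and 3.87 under SF1-8. In FPKM the SF1-8 libraries lay inside the range of the DMSO libraries, and in TMM-scaled counts the groups overlapped. Its log2 fold change was 0.06, with a 95% interval from -0.18 to 0.30. The antisense gene SLC7A11-AS1, which overlaps it over 14081 bases, had an FPKM of at most 0.211.

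Amino acid synthesis is represented by ASNS, PSAT1 and PHGDH. ASNS encodes asparagine synthetase, whose promoter window holds the composite motif printed above. The ASNS entry runs on chromosome 7 of GRCh38 from 97851677 to 97972299 and also names AC079781, OR7E38P and AC004967, while ASNS itself spans 20425 of its 120623 bases, so that reads of other transcripts can be included. The FPKM of the entry was 6.64 and 6.33 under DMSO, against 6.18 and 7.52 under SF1-8. The SF1-8 libraries held the lowest and the highest value. The log2 fold change of ASNS was 0.11 (95% interval -0.18 to 0.39), and -0.03 without SF1-8 2.

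PSAT1 and PHGDH encode enzymes of serine synthesis from a glycolysis intermediate, PHGDH at the entry step and PSAT1 at the transamination that follows. PSAT1 (chromosome 9 of GRCh38 from 78297125 to 78330093) had the highest FPKM of the 10 genes, at 21.6 and 19.8 under DMSO, against 21.7 and 23.1 under SF1-8. Both SF1-8 libraries exceeded both DMSO libraries, by little. For PSAT1 the log2 fold change was 0.14 (95% interval -0.07 to 0.36). PHGDH (chromosome 1 of GRCh38 from 119648411 to 119744218) was low, with an FPKM of 0.838 and 0.980 under DMSO, against 0.865 and 0.727 under SF1-8. Its groups overlapped, and its log2 fold change was -0.17 (95% interval -0.64 to 0.30). The mean FPKM with DMSO was 20.7 for PSAT1 and 0.909 for PHGDH. The gap was narrower in estimated counts. They were 2751 and 3541 for PSAT1 in DMSO 1 and DMSO 2, against 453 and 734 for PHGDH. FPKM also depends on the transcript length assigned to each entry, which was not checked. The size of the gap between PSAT1 and PHGDH is therefore not settled.

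PPP1R15A encodes GADD34, the phosphatase subunit that reverses the phosphorylation of eIF2α and so ends the response. On chromosome 19 of GRCh38 from 48872421 to 48876058, PPP1R15A gave an FPKM of 11.6 and 11.1 under DMSO, against 11.4 and 11.8 under SF1-8. The FPKM ranges overlapped, although in TMM-scaled counts both SF1-8 libraries were slightly higher. The log2 fold change of 0.05 was the smallest in size among the 10 genes, with a 95% interval from -0.17 to 0.27.

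SESN2 and DDIT4 encode Sestrin 2 and REDD1, which restrain the growth kinase complex mTORC1 under amino acid shortage and other stress. On chromosome 1 of GRCh38 from 28259518 to 28282491, SESN2 gave an FPKM of 7.30 and 7.52 under DMSO, against 7.09 and 6.73 under SF1-8. In FPKM both SF1-8 libraries were lower, while in TMM-scaled counts the groups overlapped. The log2 fold change of SESN2 was -0.08 (95% interval -0.34 to 0.19). On chromosome 10 of GRCh38 from 72273924 to 72276036, DDIT4 gave an FPKM of 12.7 in both DMSO libraries, and 13.4 and 13.1 with SF1-8. Both SF1-8 libraries were higher by a small margin, and the log2 fold change was 0.09 (95% interval -0.16 to 0.34). The antisense gene DDIT4-AS1, which overlaps DDIT4, was listed at a count of 0 in all 4 libraries.

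**Figure D3:**
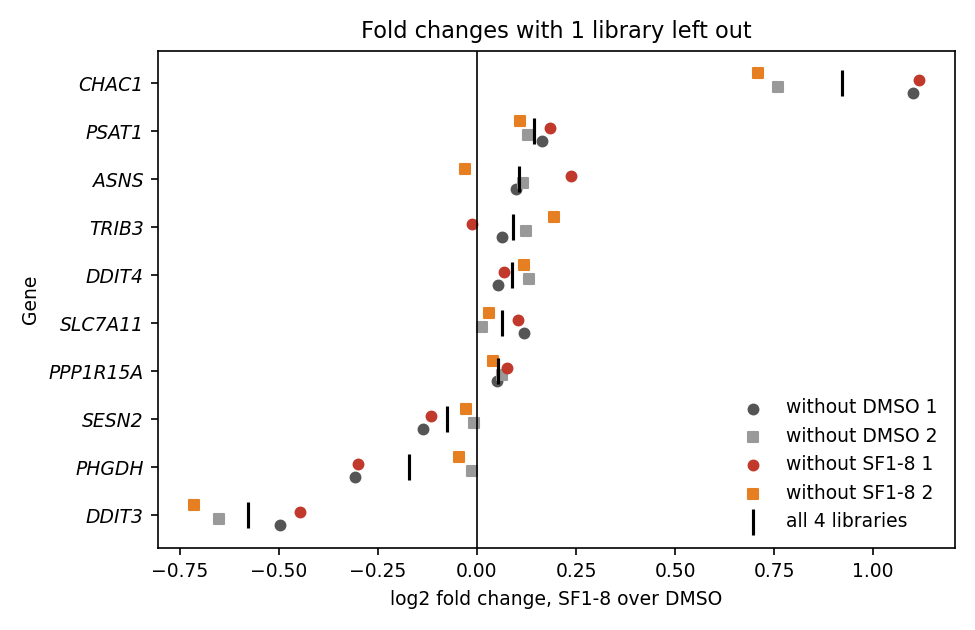
Log2 fold change of each gene with all 4 libraries (black bar) and with 1 library left out (points). DDIT3 stays between -0.71 and -0.45 and CHAC1 between 0.71 and 1.11, while TRIB3 and ASNS cross 0 when 1 SF1-8 library is left out.

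Leaving out single libraries moved the size of the DDIT3 difference and kept its direction. It was -0.71 without SF1-8 2, -0.65 without DMSO 2, -0.50 without DMSO 1 and -0.45 without SF1-8 1. In these fits the lone library of a group is taken to vary like the other group. The adjusted p of DDIT3 lay between 0.345 and 0.999 over the 14 settings by edgeR, DESeq2 and limma, and its unadjusted p was under 0.05 in 14 of 14. CHAC1 kept its direction in 14 of 14 settings and had an unadjusted p under 0.05 in 0. TRIB3 and ASNS each kept theirs in 13 of 14, and the other 6 genes in 14 of 14. All settings refit the same 4 libraries or some of them, so these counts are not independent repeats.

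Set in order of FPKM, the level with DMSO ran from PSAT1 through TRIB3, DDIT3, DDIT4, PPP1R15A, SESN2, ASNS and SLC7A11 to PHGDH and CHAC1, and no neighbours in this order overlapped. With SF1-8 the order was the same except that DDIT3 stood at position 5 in place of 3, below DDIT4 and PPP1R15A. With SF1-8, SESN2 and ASNS overlapped, at a mean FPKM of 6.91 and 6.85. By mean FPKM over the 4 libraries, PSAT1 lay above 95.1% of all tested entries, TRIB3 above 93.5%, DDIT3 above 90.3% and CHAC1 above 17.3%.

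The members did not share a pattern over the libraries. Their mean profile in log2 TMM-scaled counts, centred on each gene's own mean, ran only from -0.03 in DMSO 2 to 0.06 in SF1-8 2. PPP1R15A lay nearest to this mean profile, at a root mean square difference of 0.00818 on the log2 scale, and CHAC1 and DDIT3 lay farthest, at 0.437 and 0.333. Among 11817 other entries with an FPKM of at least 1 in every library, those nearest to the mean profile over the 4 libraries included IDE, the entry of VWA8 and MIR5006, CSE1L and the entry of C1orf216 and CLSPN, at 0.00235 to 0.00462. These profiles are close to flat, so likeness here says little beyond small changes.

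The sensors and effectors of the pathway were next compared, among them ATF3, which ATF4 itself is known to induce. Among 18 sensors and effectors (kinases, subunits of eIF2 and eIF2B, a phosphatase subunit and transcription factors), 0 were called at an adjusted p under 0.05 and 2 had an unadjusted p under 0.05, ATF3 above and EIF2AK2 below DMSO. Over all entries these thresholds were passed by 0.0420% and 4.33%. Their median log2 fold change was 0.05, beside -0.01 over all entries. ATF4 itself had an FPKM of 9.33 and 9.41 under DMSO, against 8.94 and 10.4 under SF1-8, which overlapped, and a log2 fold change of 0.07 (95% interval -0.22 to 0.37). ATF4 is controlled largely at translation, which mRNA levels do not measure. Its partners CEBPB and CEBPG had log2 fold changes of -0.03 (95% interval -0.26 to 0.20) and 0.03 (95% interval -0.18 to 0.25).

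The kinases were measured at unlike levels. EIF2AK1, the heme-regulated kinase, had an FPKM of 24.2 and 18.8 under DMSO, against 24.3 and 20.5 under SF1-8. The DMSO libraries differed more from each other than the groups did. EIF2AK2, the kinase PKR that senses double-stranded RNA, had an FPKM of 8.66 and 7.31 under DMSO, against 5.71 and 6.70 under SF1-8. Both SF1-8 libraries were lower, with a log2 fold change of -0.33 (95% interval -0.62 to -0.05). Its adjusted p in the edgeR quasi-likelihood fit was 0.970. EIF2AK3, the endoplasmic reticulum kinase PERK, had a log2 fold change of 0.17 (95% interval -0.11 to 0.45), and EIF2AK4, the amino acid sensor GCN2, of 0.09 (95% interval -0.12 to 0.29). ATF3, a stress-induced repressor and activator that ATF4 is known to induce, was low, at an FPKM of 0.321 and 0.127 under DMSO, against 0.763 and 0.775 under SF1-8. Its difference went the opposite way to that of DDIT3, with an interval of the log2 fold change from 0.70 to 2.93 and an adjusted p of 0.970 in the edgeR quasi-likelihood fit and 0.0788 with DESeq2. In that edgeR fit ATF3 ranked 209 of all entries by p. The difference between the fold changes of ATF3 and DDIT3 was not tested. The paper lists ATF3 among the up-regulated genes of this experiment and reports more ATF3 protein by western blot.

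**Figure D4:**
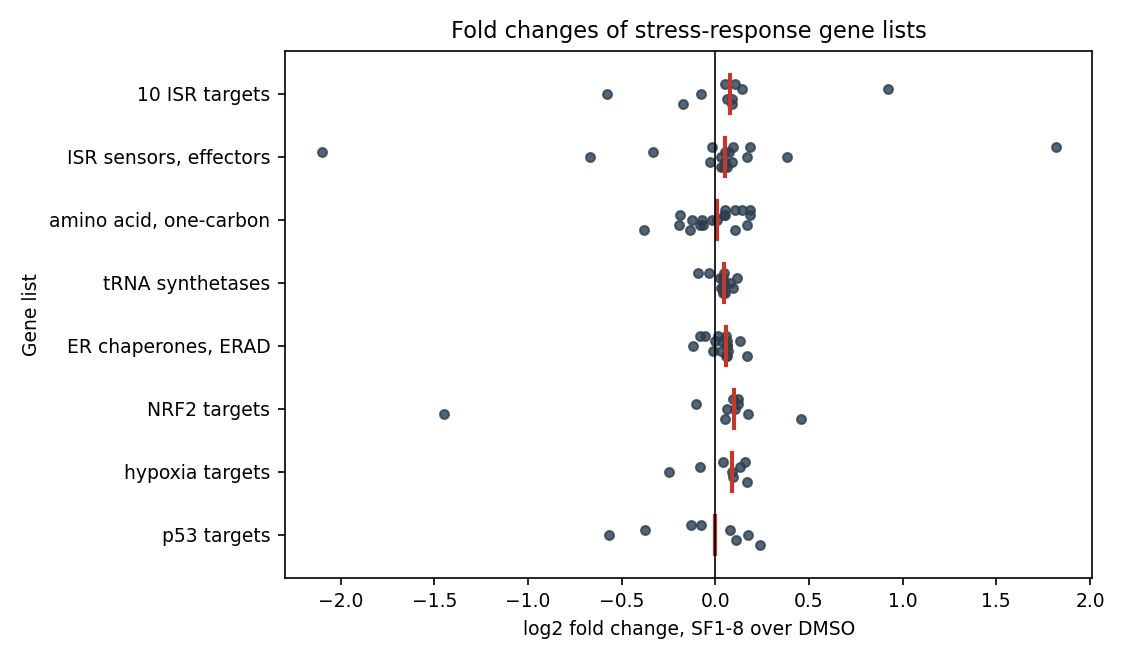
Log2 fold changes, SF1-8 over DMSO, of the tested genes of 8 lists. Each point is a gene and each red bar the median of its list. The medians lie between 0.00 and 0.10, and the points far from 0 are mostly genes of low level such as ATF3, NUPR1 and HMOX1.

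Other targets of the ATF4 programme were counted next. Of 20 amino acid and one-carbon genes, 19 were tested. In the edgeR quasi-likelihood fit, 0 were called or had an unadjusted p under 0.05, beside 0.0420% and 4.33% of all entries. The log2 fold changes of the 19 genes ran from -0.38 for SHMT2, the mitochondrial serine hydroxymethyltransferase, to 0.19, with a median of 0.01. The 14 cytosolic aminoacyl-tRNA synthetases held between -0.09 and 0.12, with a median of 0.04, and again 0 had an unadjusted p under 0.05. For all 14 the 95% interval lay within 2-fold in both directions, against 45.9% of all entries tested. These compare genes of unlike level, since by mean FPKM the 14 lay above 77.2% to 98.9% of all tested entries.

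The branches of the unfolded protein response that run beside PERK raise chaperones and protein disposal. Of 17 genes for chaperones and degradation in the endoplasmic reticulum, 0 had an unadjusted p under 0.05 in the edgeR quasi-likelihood fit, beside 4.33% of all entries. The log2 fold changes of the 17 genes ran from -0.12 to 0.17 with a median of 0.05. HSPA5, the chaperone BiP and the standard marker of stress in this compartment, had an FPKM of 111 and 104 under DMSO, against 110 and 111 under SF1-8. These ranges overlapped, while in TMM-scaled counts both SF1-8 libraries were slightly higher, at a log2 fold change of 0.07 (95% interval -0.08 to 0.22). XBP1 had a log2 fold change of -0.00 (95% interval -0.21 to 0.20) in its total mRNA, which does not show its stress-induced splicing.

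Some members are also targets of other stress pathways, so those lists were counted too. SLC7A11 is a target of NRF2, the regulator of the oxidative stress response, DDIT4 of hypoxia and SESN2 of p53, which K562 cells lack in functional form. In the edgeR quasi-likelihood fit, an unadjusted p under 0.05 was reached by 0 of 10 NRF2 targets, 0 of 8 hypoxia targets tested and 0 of 8 p53 targets tested. Over all entries the share was 4.33%, so in lists this short a count of 0 is near it. Each list includes the member named for it above. The median log2 fold changes of the NRF2, hypoxia and p53 lists were 0.10, 0.09 and 0.00. Among 7 stromal markers tested, 5 had an unadjusted p under 0.05, LUM, COL1A2, DCN, COL3A1 and PDGFRB, all lower with SF1-8, beside 2.54% of all entries that were lower at this threshold. COL1A1 was also below 0 in its log2 fold change, at -2.55, and THY1 was above 0, at 0.15. Of the 7, 0 were called in the edgeR quasi-likelihood fit and 1, COL1A2, with DESeq2. The paper reports collagen genes of this list as down-regulated in the same experiment. The stromal list was chosen with earlier results of these data known. Its count beside the share of all entries is therefore a description and not an independent test. Of 6 lymphocyte and monocyte markers tested, 0 had an unadjusted p under 0.05, with a median log2 fold change of -0.11.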

How the data were processed

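The 4 libraries, from K562-U2AF1 S34F cells given DMSO (2) or SF1-8 (2), were grouped by treatment label. The authors deposited an FPKM value per entry and library, and estimated counts as whole numbers without normalization. Cutadapt, FastQC, Bowtie2, HISAT2, StringTie and hg38 are named in the submitters' processing notes; versions and strand settings are not given in the sources used here. The 2095 entries without a gene name (0.372% of counts) were left out. A symbol was matched to the entry with the highest mean count.

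Counts were normalized by TMM, filtered by filterByExpr and tested by edgeR's quasi-likelihood test (edgeR 4.0.16, R 4.3.3, two-sided, Benjamini-Hochberg adjustment over 26167 entries). Intervals are 95% intervals from that test. For a single value the smallest two-sided p of an exact permutation test of 2 against 2 is 0.333, so none was run. The procedure was tested on simulated counts, with larger changes than that of DDIT3 and only in genes of higher level than CHAC1. That test therefore says nothing on changes as small as that of DDIT3 or at the level of CHAC1. The members and the 10 other gene lists were chosen with earlier results of these data known. All 10 members are named, with list genes at an unadjusted p under 0.05 (at most 5 a list). Also named are ATF4, ATF3, CEBPB, CEBPG, the 4 kinases, HSPA5 and XBP1. SHMT2, NUPR1, HMOX1, GATA1, HBG1, HBG2, HBE1, COL1A1, THY1 and the overlapping genes were added after their values were seen. Of the 5 entries nearest to the members' mean profile, 4 are named and 1 is not reported here. Alternatives were DESeq2 1.42.0, limma 3.58.1 with trend on log2(FPKM + 1) and log2(FPKM + 0.1) for entries with an FPKM of at least 0.1 in 2 libraries, RLE factors, library totals alone, no filter, library sizes without ribosomal RNA loci, counts divided by 4, the replicate number as a block, and leaving out each library.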

Additional observations from a re-analysis of the deposited data

How the results depend on the processing

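Over 13 alternatives, 0 of the 10 members reached an adjusted p under 0.05 and 1, DDIT3, had an unadjusted p under 0.05 in each. The members' median log2 fold change ran from 0.03 to 0.09. Of 130 fold changes of members, 128 kept their direction; with 1 library left out, TRIB3 ran from -0.012 (without SF1-8 1) to 0.19 and ASNS from -0.031 (without SF1-8 2) to 0.24. The number of all entries called moved more. It was 143 with DESeq2, 31 with no filter on low counts, 0 with limma on log2(FPKM + 1) or log2(FPKM + 0.1), and 0 to 30 with 1 library left out (0 without DMSO 1, 21 without DMSO 2, 30 without SF1-8 1 and 28 without SF1-8 2); the cause was not tested. Of the stromal markers, 1 was called with DESeq2. With the replicate number as a block, 0 entries were called and the DDIT3 value was -0.58. Deviations of libraries of the same number correlated at -0.028 across 13344 entries. With 2 libraries in each group this is a single correlation. It cannot show whether libraries of the same number were handled together, which the labels do not say. The commonest count above 0 was 4, so what 1 count stands for, and with it the counting error of low genes such as CHAC1, is not known.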
